A study of Mus musculus with 30 samples.

Results

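The hypoxia and glycolysis genes were 33 genes taken by symbol, 14 enzymes that carry glucose to lactate and 19 other genes known as targets of the hypoxia response, out of 20849 genes named in the table. Each was represented by its transcript with the highest mean, and all 33 had a mean of at least 1 RPKM (reads divided by transcript length and by library depth), as did 13613 genes in all. The samples were 30 mammary tumours induced by the polyoma middle T oncogene (PyMT), 1 per animal, from ((MOLF x PyMT) x FVB) backcross mice. MOLF is a wild-derived strain and FVB an inbred laboratory strain, so every animal carried its own mixture of both genomes and all shared the oncogene. No label names a treatment, an age, a stage or the promoter of the transgene, so there was 1 group and every result is a description or a relation over its 30 animals, which are named by their label numbers.

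When oxygen is low, the prolyl hydroxylases that mark the HIF alpha subunits for destruction by the VHL ubiquitin ligase lose activity. The stabilised HIF factors then bind short DNA elements and raise genes for glucose uptake, glycolysis, lactate export, vessel growth and cell survival. In tumours the same genes can also be raised by oncogenic signalling with oxygen present, and mammary tumours that outgrow their vessels are a classic setting for them. Glycolysis splits glucose in a series of enzyme steps, and lactate dehydrogenase turns the resulting pyruvate into lactate.

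The core of the element that HIF binds is ACGTG or GCGTG. Promoter sequences of 31 of the 33 genes were matched by symbol in RefSeq (GRCm38.p6), and Ndrg1 and Bhlhe40 were not matched. The sequences below are the 250 bases before the start of Pgk1 and of 5 members that rose with Vegfa or Pgk1, picked after their values were seen, 5′ to 3′ on the gene's strand, with ACGTG and its reverse complement CACGT in capitals. Tpi1 is shown as a member with no match beside Pgk1, the gene it followed most closely. They belong to Ankrd37 (chr8:45999851-46000100, minus strand), Bnip3 (chr7:138909507-138909756, minus), Pgk1 (chrX:106186850-106187099, plus), P4ha1 (chr10:59323046-59323295, plus), Slc16a3 (chr11:120948817-120949066, plus) and Tpi1 (chr6:124814159-124814408, minus).
Ankrd37: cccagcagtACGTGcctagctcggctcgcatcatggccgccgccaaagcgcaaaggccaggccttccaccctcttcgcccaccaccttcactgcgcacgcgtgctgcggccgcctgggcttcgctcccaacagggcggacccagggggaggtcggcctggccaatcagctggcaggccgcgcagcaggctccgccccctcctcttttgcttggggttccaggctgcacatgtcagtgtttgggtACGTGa
Bnip3: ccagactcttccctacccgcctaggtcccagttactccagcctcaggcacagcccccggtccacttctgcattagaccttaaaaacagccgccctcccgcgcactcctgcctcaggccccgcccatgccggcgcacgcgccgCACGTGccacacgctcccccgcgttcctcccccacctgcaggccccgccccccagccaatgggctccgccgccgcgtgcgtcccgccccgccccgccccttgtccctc
Pgk1: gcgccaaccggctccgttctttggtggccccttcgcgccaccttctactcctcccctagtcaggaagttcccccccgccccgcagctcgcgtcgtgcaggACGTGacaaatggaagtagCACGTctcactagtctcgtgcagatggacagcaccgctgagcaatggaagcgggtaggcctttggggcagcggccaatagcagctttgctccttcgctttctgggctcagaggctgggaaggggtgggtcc
P4ha1: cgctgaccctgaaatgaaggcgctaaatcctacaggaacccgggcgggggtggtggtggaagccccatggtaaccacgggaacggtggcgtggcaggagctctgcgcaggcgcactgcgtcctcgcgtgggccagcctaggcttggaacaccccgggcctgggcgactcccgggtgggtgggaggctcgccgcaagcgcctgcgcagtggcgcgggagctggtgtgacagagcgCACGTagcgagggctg
Slc16a3: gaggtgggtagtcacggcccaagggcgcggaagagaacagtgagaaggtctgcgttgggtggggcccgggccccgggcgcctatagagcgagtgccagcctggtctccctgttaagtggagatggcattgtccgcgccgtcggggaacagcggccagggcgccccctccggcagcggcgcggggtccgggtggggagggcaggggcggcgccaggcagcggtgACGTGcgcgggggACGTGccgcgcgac
Tpi1: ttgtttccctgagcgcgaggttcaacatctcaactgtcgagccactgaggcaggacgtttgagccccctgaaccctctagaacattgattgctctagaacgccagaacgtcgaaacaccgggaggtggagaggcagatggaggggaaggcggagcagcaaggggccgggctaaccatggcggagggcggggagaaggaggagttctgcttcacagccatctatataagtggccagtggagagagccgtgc
The palindrome CACGTG counts as 2 overlapping matches, which happened in Bnip3 (108 and 107 bases before the start). Slc16a3 held its 2 matches 27 and 14 bases before the start, Ankrd37 held its 2 at 241 and 6, and Pgk1 at 150 and 131.

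Over windows from 250 bases before to 50 after a start, ACGTG was found on either strand in 23 of 31 matched members (74.2%), in 9 of 14 glycolytic enzymes and in 14 of 17 other targets. The share was 28.4% of the 10818 tested genes with a promoter and 21.8% of all genes with one. GCGTG was found in 21 of 31 members (67.7%) against 54.2% of tested genes, and CACGTG in 3 of 31 (9.68%) against 11.4%. The members' windows also held more CpG pairs, with a median of 21 against 19, and a GC content of 64% against 60%. ACGTG was not in the windows of Gpi1, Pfkl, Pfkp, Tpi1, Eno1, Adm, Pfkfb4 or Pdk1. A match is a string of letters in these windows, not a measured binding site.

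The glycolytic enzymes were among the abundant transcripts of these tumours and held 0.845% of the summed RPKM of all tested genes, against 0.0945% for the 19 other targets. Sequencing depth, as recovered from the table, lay between 42.4 and 61.7 M reads in 16 shallow libraries and between 117 and 197 M in 14 deep ones. Mean insert size, given in the labels, was 261 ± 12.3 bases in the shallow libraries and 233 ± 14.7 in the deep ones (SD), so depth and insert size moved together. Summed levels of 10 luminal epithelial markers, the check of the labelled tissue, ran from 1560 to 3394 RPKM with a median of 2367. The shallowest library, animal 4150, was highest in 16.8% and lowest in 17.6% of all tested genes. Animal 3273 held 17940 RPKM summed over 14 skeletal muscle genes, against a median of 248, and animal 4036 held 7759 RPKM over 20 stroma matrix genes, against 1653. Animal 4438 stood apart in the hypoxia genes themselves, so results that rest on it are given with and without it.

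Hexokinases trap glucose inside the cell. Hk1 ran from 34.5 RPKM in animal 4150 over a median of 102 to 143 RPKM in animal 4511. Hk2, the isoform known as a HIF target, had a median of only 6.54 RPKM, with 16.8 in animal 3273 and 15.4 in animal 4438. Animal 3273 also had the most skeletal muscle RNA, and the part of that RNA in the Hk2 level was not tested. Hk1 made up 94.1% of the sum of both in the median tumour and at least 85.5% in every tumour. Animals 3273 and 4438, with the highest Hk2, were at ranks 14 and 23 for Hk1.

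Glucose-6-phosphate isomerase (Gpi1), which makes fructose-6-phosphate, ran from 148 RPKM in animal 4036 over a median of 184 to 299 RPKM in animal 4030. The liver-type phosphofructokinase Pfkl, part of the committed step, ran from 99.9 over 165 to 261 RPKM. Its platelet-type isoform Pfkp ran from 15.1 over 28 to 41.7 RPKM, with its highest level in animal 4438. Pfkl was the larger of both in all 30 tumours, with a median share of 85.8%.

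Aldolase A (Aldoa), which splits the sugar phosphate and is also abundant in muscle, ran from 342 RPKM in animal 4038 over a median of 677 to 1892 RPKM in animal 3273. Animal 3427 had the second level, 1216 RPKM. The highest level was thus in the tumour with the most muscle RNA, and the part of that RNA in the level was not tested. Aldoc, the brain-type aldolase, ran from 113 over 196 to 387 RPKM and stood at rank 29 of 30 in animal 4438.

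Triosephosphate isomerase (Tpi1) ran from 166 over 231 to 394 RPKM, with animals 4438 and 4164 at 394 and 393. Glyceraldehyde-3-phosphate dehydrogenase (Gapdh), often used as a constant reference gene, ran from 132 RPKM in animal 4036 over 269 to 567 RPKM in animal 4150, a 4.31-fold range. Phosphoglycerate kinase (Pgk1), the first ATP-making enzyme of the pathway, ran from 72.6 over 106 to 288 RPKM in animal 4438. Its second level was 202 RPKM in animal 4030, so the upper end of Pgk1 was held by 1 tumour.

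Phosphoglycerate mutase (Pgam1) ran from 55.3 over 91.2 to 163 RPKM in animal 4438. Enolase (Eno1) ran from 244 over 386 to 678 RPKM in animal 4262. Its level is uncertain, because the near-identical copy Eno1b had a row of its own with a median of 415 RPKM and reads may be shared between them. Pyruvate kinase (Pkm) ran from 338 RPKM in animal 4150 over 621 to 791 RPKM in animal 4164, and lactate dehydrogenase A (Ldha) from 369 over 644 to 1042 RPKM in animal 3427. Ldha made up 86.5% of Ldha and Ldhb together in the median tumour and 93.6% in animal 4438. Processed pseudogenes are common for Gapdh, Pgk1, Tpi1, Aldoa and Ldha, and how reads shared with them were counted is not given in the sources used here.

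**Figure D1:**
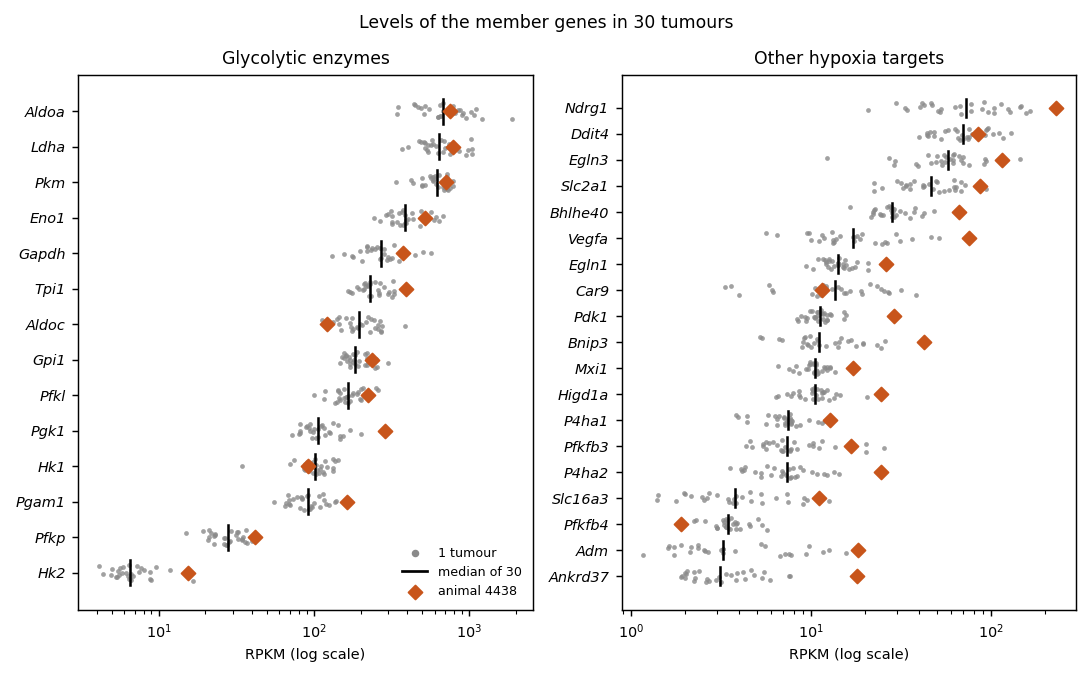
Level of each glycolytic enzyme (left) and other hypoxia target (right) in the 30 tumours, in RPKM on a log axis, with genes ordered by median; grey points are tumours, black bars the medians and orange diamonds animal 4438. The diamond is the highest point of 12 of 19 other targets, among them Vegfa at 75.6 RPKM, but lies below the median for Car9, Pfkfb4, Aldoc and Hk1.

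Of the other targets, vascular endothelial growth factor A (Vegfa) is the secreted signal that draws vessels into oxygen-poor tissue. It ran from 5.65 RPKM in animal 4547 over a median of 17.2 to 75.6 RPKM in animal 4438, a 13.4-fold range. Animals 4150 and 4164 followed with 51.5 and 46.5 RPKM. Adrenomedullin (Adm), a vasodilator peptide, ran from 1.16 over 3.23 to 18.2 RPKM in animal 4438, with 15.7 RPKM in animal 4030. Both secreted factors therefore had a long upper tail with animal 4438 at its end.

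The glucose transporter Slc2a1 (GLUT1) ran from 22.3 over 46.4 to 94.3 RPKM in animal 4030, with animal 4438 second at 86.6. The lactate exporter Slc16a3 (MCT4) ran from 1.39 RPKM in animal 4038 over 3.80 to 12.6 RPKM in animal 4030, with animal 4438 second at 11. Carbonic anhydrase 9 (Car9), a membrane enzyme that controls pH outside the cell, ran from 3.34 over 13.6 to 38.2 RPKM in animal 3654. Car9 differed in order from the transporters, since animal 4438 was only at rank 20 with 11.6 RPKM.

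The feedback and oxygen-sensing members were the prolyl hydroxylases Egln1 and Egln3, which are both sensors and targets. Egln1 stayed within 9.39 to 26 RPKM (median 14.1), while Egln3 ran from 12.3 RPKM in animal 4357 over 57.6 to 146 RPKM in animal 4164. Egln3 exceeded Egln1 in 29 of 30 tumours, all but animal 4357. Ankrd37, a small ankyrin protein and known HIF target, ran from 1.91 over 3.12 to 18.1 RPKM in animal 4438, and its second level was 7.61 RPKM in animal 4164. Animal 4438 was 5.86-fold above the median of the other tumours in Ankrd37, the largest such ratio among the 33 members.

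The mitochondrial and survival members included Bnip3, a mitophagy receptor, which ran from 5.21 RPKM in animal 4547 over 11.1 to 42.7 RPKM in animal 4438. Pdk1, a kinase that inhibits pyruvate dehydrogenase, ran from 8.4 over 11.2 to 29 RPKM, and its second level was 15.7 RPKM. Higd1a, a mitochondrial protein, ran from 6.43 over 10.5 to 24.4 RPKM. In all 3 the highest level was that of animal 4438. Ddit4 (REDD1), an inhibitor of mTOR signalling, ran from 40.1 over 69.6 to 129 RPKM in animal 4164, and animal 4438 was at rank 9 with 84.9.

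The bifunctional enzymes Pfkfb3 and Pfkfb4 set the level of an activator of phosphofructokinase. Pfkfb3 ran from 4.38 over 7.4 to 25.4 RPKM in animal 4036. Pfkfb4 ran the other way in animal 4438, which had its lowest level of 1.90 RPKM, against a median of 3.44 and a highest level of 5.71 RPKM in animal 3273. Pfkfb4 was the one member with its lowest level in animal 4438.

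The collagen prolyl hydroxylases P4ha1 and P4ha2 had like medians of 7.41 and 7.39 RPKM and reached 12.7 and 24.4 RPKM in animal 4438. Ndrg1, a stress-response protein, ran from 20.8 RPKM in animal 4038 over 72.9 to 229 RPKM in animal 4438, the widest absolute range among the other targets. The transcriptional repressors Mxi1 and Bhlhe40 had medians of 10.6 and 28.3 RPKM and their highest levels, 17.1 and 66.4 RPKM, in animal 4438. Mxi1 had the smallest spread of all members, with an SD of 0.245 on the log2(RPKM + 1) scale.

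The spread of the 2 groups differed in size. The median SD of log2(RPKM + 1) was 0.552 among the 19 other targets, 0.382 among the 14 glycolytic enzymes and 0.272 among all tested genes. An SD of at least 0.5 was reached by 11 of the other targets, led by Adm (0.893), Ndrg1 (0.836), Car9 (0.833) and Vegfa (0.809), and by 1 glycolytic enzyme, Aldoa (0.546). Over all tested genes the share was 11.8%. The pseudocount of 1 compresses the spread of low genes more than that of abundant ones, and the glycolytic enzymes were the more abundant group.

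**Figure D2:**
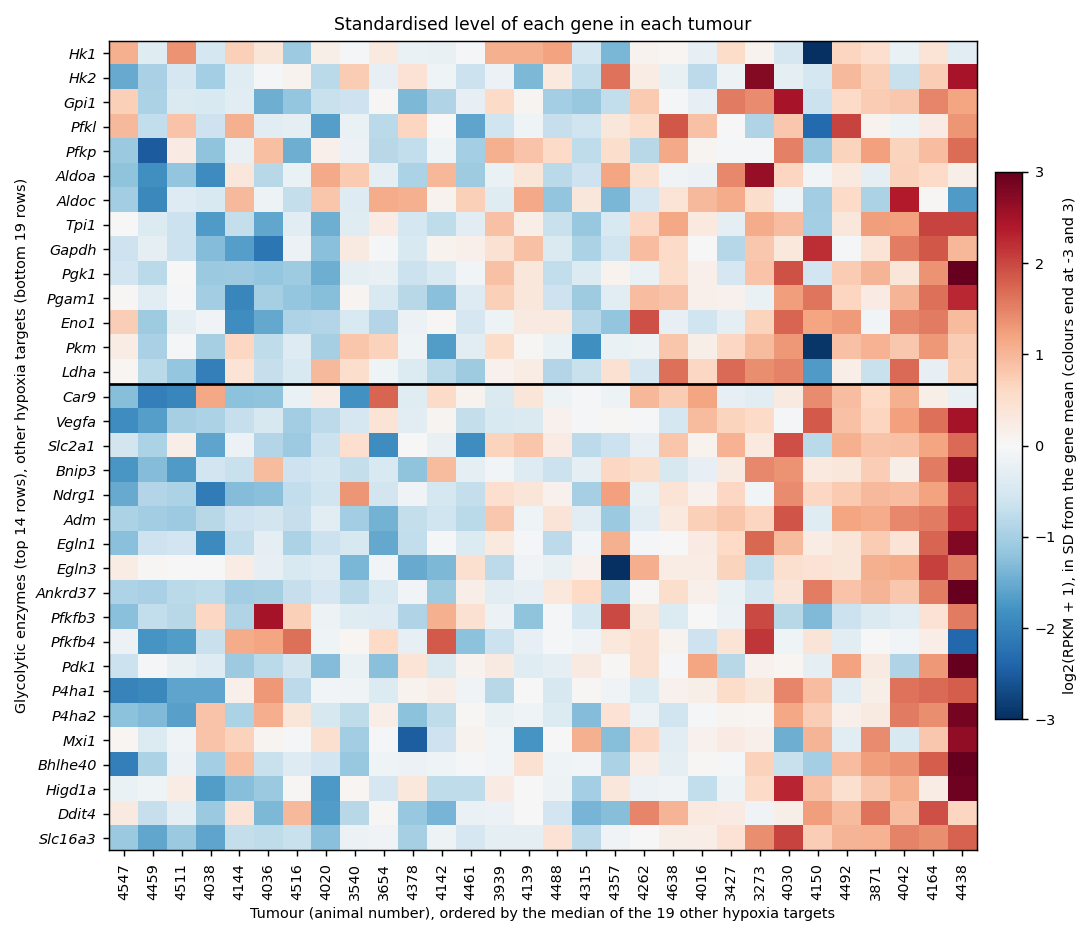
Level of each gene in each tumour as log2(RPKM + 1) in SD from the gene's mean, red above and blue below, with the 14 glycolytic enzymes above the black line, the 19 other targets below it, and tumours ordered by the median of the other targets. The right-hand columns, animals 4438 and 4164, are red in most rows, and Pfkfb4, Aldoc and Hk1 depart from their neighbours.

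Animal 4438 had the highest level of 16 of the 33 members, 4 glycolytic enzymes (Pfkp, Tpi1, Pgk1 and Pgam1) and 12 other targets, while it was highest in 9.39% of all tested genes. It was among the top 3 in 21 members against 20.6% of all genes. Animal 4164 was among the top 3 in 19 members, against 7.2% of all genes. At the other end, animal 4038 was lowest in 6 members (1.68% of all genes), animal 4547 in 5 (1.55%), animal 4020 in 4 (1.62%) and animal 4150 in 4 (17.6%). Animal 4547 showed a split between the groups, with a median of 0.02 SD for the glycolytic enzymes and -1.12 SD for the other targets, whereas animal 4150 had -0.84 and 0.62.

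The high tumour also differed in markers of other cells. In animal 4438 the summed level of 20 stroma matrix genes was the lowest of all tumours, 463 RPKM against a median of 1653, and 14 endothelial genes summed to 43.7 RPKM against 92.3, also the lowest. Macrophage markers were lowest too, at 175 against 349 RPKM. Its proliferation score was at rank 3. In bulk tissue, fewer cells of a type and less RNA per cell cannot be told apart, and the part of these differences in the hypoxia genes of this tumour was not tested.

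Members moved together to an extent that differed between pairs. As a description with no test, the median Pearson r over pairs of members was 0.343 within the glycolytic enzymes, 0.465 within the other targets and 0.379 between the groups, against 0.014 over all pairs of tested genes. That hypoxia genes vary together in these tumours was known when the members were chosen. Without animal 4438 the medians were 0.338, 0.369 and 0.336. The closest pairs were Tpi1 with Pgk1 (r = 0.857), Adm with Slc16a3 (0.837) and Bnip3 with Egln1 (0.835). Hk1, Aldoc and Pfkfb4 had the lowest median r with the other targets, -0.122, 0.003 and -0.1. Without animal 4438 these were -0.108, 0.156 and 0.123, and Pfkfb3 (0.027), Pfkl (0.065) and Mxi1 (0.092) then lay below Aldoc and Pfkfb4. The low place of Aldoc and Pfkfb4 thus depended on that 1 tumour, and the place of Hk1 did not. All points share the same 30 libraries, so depth and composition enter every pair.

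To ask which genes followed Vegfa, every gene was fitted on the level of Vegfa with limma, with Benjamini-Hochberg adjustment over 13612 genes. Of the 32 other members, 9 rose with Vegfa and none fell, while 0.11% of all genes rose and 0.00735% fell. The members were chosen with their joint variation in these tumours known, so these shares describe them and are no independent test. All 9 were other targets: Slc16a3, Ankrd37, P4ha1, Bnip3, Egln1, Ndrg1, Adm, P4ha2 and Bhlhe40. None of the 14 glycolytic enzymes passed in limma, although 9 of the 14 had an unadjusted p under 0.05, as did 8.31% of all genes. The 2 groups were not tested against each other. The median slope was 0.27 log2 units per SD of Vegfa over the other targets, 0.16 over the glycolytic enzymes and -0.002 over all genes. A slope also scales with the gene's own spread, whose median SD was 0.552 in the other targets and 0.382 in the glycolytic enzymes. The median r of Vegfa was 0.618 with the other targets and 0.452 with the glycolytic enzymes, and 0.576 and 0.381 without animal 4438. With 1 library per animal, biological and technical spread both enter these p-values and cannot be told apart.

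Slc16a3 rose by 0.57 ± 0.08 (slope per SD of Vegfa on the log2(RPKM + 1) scale, with SE; limma adjusted p = 0.000178), and by 0.53 without animal 4438 (limma adjusted p = 0.00203). Ankrd37 rose by 0.48 ± 0.07 (limma adjusted p = 0.000178), and by 0.35 without animal 4438 (limma adjusted p = 0.0143). P4ha1 rose by 0.30 ± 0.05 (limma adjusted p = 0.00248), and by 0.27 without it (limma adjusted p = 0.0187). These 3 passed in each of the 30 fits that left out 1 tumour. The other 6 rose by 0.21 (Egln1) to 0.60 (Adm), and their limma adjusted p without animal 4438 ran from 0.0768 for Bnip3 to 0.158 for P4ha2 and Bhlhe40. All 9 kept their sign without that tumour, and 3 members were called in place of 9, against 0.0367% of all genes rising.

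Within depth classes the Vegfa slopes were positive in 31 of 32 members over the 14 deep libraries and in 26 of 32 over the 16 shallow ones. By limma with Benjamini-Hochberg adjustment, 0 members passed in the deep libraries and 3 in the shallow ones, against 0% and 0.022% of all genes rising. At an unadjusted p under 0.05 there were 20 and 19 of 32 members, against 3.3% and 6.81% of all genes. Car9 had a slope of 0.43 ± 0.13 that did not pass (limma adjusted p = 0.366), and among glycolytic enzymes Pgam1 came nearest with 0.23 ± 0.05 (limma adjusted p = 0.0843).

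**Figure D3:**
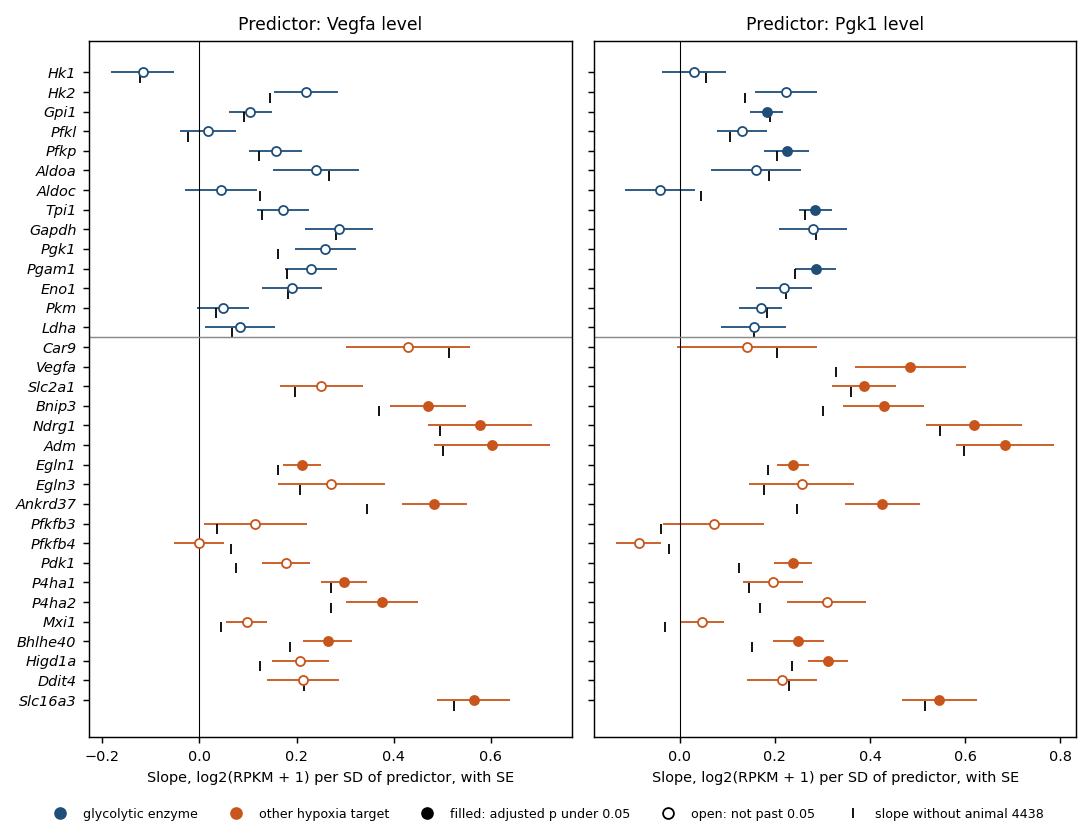
Slope of each member on the level of Vegfa (left) and of Pgk1 (right), in log2(RPKM + 1) per SD of the predictor with its SE; blue is glycolytic, orange other targets, filled points passed an adjusted p of 0.05, and black ticks are slopes without animal 4438. The filled points on the left are the 9 other targets named in the text, and most ticks lie to the left of their point.

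With Pgk1 as the predictor, which is the glycolytic counterpart, 15 of 32 members rose and none fell, against 0.558% and 0.191% of all genes rising and falling (limma, Benjamini-Hochberg). They were 4 glycolytic enzymes (Tpi1, Pgam1, Pfkp and Gpi1) and 11 other targets (Higd1a, Egln1, Slc16a3, Adm, Ndrg1, Pdk1, Slc2a1, Ankrd37, Bnip3, Bhlhe40 and Vegfa). Tpi1 rose by 0.29 ± 0.03 per SD of Pgk1 (limma adjusted p = 1.2e-05) and by 0.26 without animal 4438 (limma adjusted p = 7.22e-05). Slc16a3 rose by 0.55 ± 0.08 (limma adjusted p = 0.000259), and by 0.52 without that tumour (limma adjusted p = 0.00166). Glycolytic enzymes and other targets were thus both among the genes that followed Pgk1. As with Vegfa, the members were chosen with their joint variation known.

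Without animal 4438, 10 of these 15 members were still called, and 13 in all, since Gapdh, Pkm and Eno1 then passed (1.01% of all genes rose). The 5 that no longer passed were Pdk1 (limma adjusted p = 0.0601), Bnip3 (0.0649), Ankrd37 (0.0788), Bhlhe40 (0.123) and Vegfa (0.136). The slope of Pdk1 went from 0.24 to 0.12, that of Ankrd37 from 0.43 to 0.25 and that of Bhlhe40 from 0.25 to 0.15. Without animal 4438 and the second-farthest tumour, animal 4030, 4 members were called, against 0.0882% of all genes rising. In the deep libraries 2 were called and in the shallow ones 4, against 0.0294% and 0.0588% of all genes. Of the members that did not pass, Ldha had a slope of 0.16 ± 0.07 (limma adjusted p = 0.256), Pfkfb4 of -0.09 ± 0.05 and Aldoc of -0.04 ± 0.07.

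Other genes of the pathway were read from lists of 10 regulators, 20 further hypoxia targets and 28 further glucose and lactate genes. Of the 20 further targets, 1 rose with Vegfa and 4 rose with Pgk1. Ero1a, an oxidoreductase of the endoplasmic reticulum, rose with both, by 0.34 ± 0.07 per SD of Vegfa (limma adjusted p = 0.0168, and 0.171 without animal 4438) and by 0.38 ± 0.06 per SD of Pgk1 (limma adjusted p = 0.000329, and 0.0263 without that tumour). Ak4, a mitochondrial adenylate kinase, rose by 0.59 ± 0.05 per SD of Pgk1 (limma adjusted p = 3.55e-08), and by 0.44 without animal 4438 (limma adjusted p = 4.52e-05). Pgm1, which links glycogen to glycolysis, rose by 0.27 ± 0.06 with Pgk1 (limma adjusted p = 0.0113). Bnip3l, the paralog of Bnip3, rose by 0.16 ± 0.04 (limma adjusted p = 0.0381), but by 0.06 without animal 4438 (limma adjusted p = 0.353).

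None of the 9 tested regulators, which include Hif1a, Epas1, Arnt and Vhl, passed in either fit by limma, with 3 at an unadjusted p under 0.05 for Vegfa and 1 for Pgk1, against 8.31% and 16% of all genes. Of 24 tested glucose and lactate genes, none passed with Vegfa (3 at an unadjusted p under 0.05, against 8.31% of all genes) and 1 with Pgk1 by limma. That gene was the kinase Pdk3, at 0.16 ± 0.04 (limma adjusted p = 0.043), which passed in 14 of the 30 fits that left out 1 tumour.

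Outside all of these lists, the genes most like Vegfa by the smallest p were Maff, a small Maf transcription factor (slope 0.31 ± 0.04, limma adjusted p = 0.000178, and 0.0114 without animal 4438), and Fam162a, a mitochondrial protein (0.31 ± 0.06, limma adjusted p = 0.00884, and 0.116 without that tumour). Pnrc1, Otud5 and Igfbp3 also rose and the thrombin receptor gene F2r fell by 0.29 ± 0.06 (limma adjusted p = 0.0218). Without animal 4438, Pnrc1, Otud5 and F2r did not pass, at limma adjusted p values of 0.139, 0.172 and 0.156. The gene Igfbp3, for an insulin-like growth factor binding protein, had a slope of 0.44 ± 0.10 (limma adjusted p = 0.0472), which passed in 9 of the 30 fits that left out 1 tumour.

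Those most like Pgk1 were Adm2, Maff, Prodh, the metallothionein Mt1 and Mthfd1l of the mitochondrial folate cycle among rising genes. Adm2 and Maff still passed without animal 4438 (limma adjusted p = 0.0191 and 0.0477), while the slope of Prodh went from 0.35 to 0.21 and did not pass (limma adjusted p = 0.077). Mt1 rose by 0.50 ± 0.10 per SD of Pgk1 (limma adjusted p = 0.00584, and 0.00337 without animal 4438), and Mthfd1l by 0.31 ± 0.06 (limma adjusted p = 0.00584, and 0.00715 without it). Among falling genes, the claudin Cldn2 fell by 0.51 ± 0.09 (limma adjusted p = 0.00322, and 0.0199 without animal 4438) and Mlph, a melanosome transport protein, by 0.31 ± 0.06 (limma adjusted p = 0.00409, and 0.00599 without it).

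Named pairs of isozymes, transporters, regulators and targets were compared over tumours with a permutation test of Pearson's r (100000 resamples, two-sided) and Benjamini-Hochberg adjustment over 15 pairs. Of these, 5 pairs passed. The members were chosen with their joint variation in these tumours known. For pairs of 2 members these p-values therefore describe the pair and are no independent test. P4ha1 and P4ha2 gave r = 0.682 (p = 4e-05, adjusted p = 0.0006, permutation test) and rho = 0.521 (p = 0.00333, adjusted p = 0.0186, permutation test), with r = 0.757 in the deep, 0.676 in the shallow libraries and 0.627 without animals 4547 and 4459, the 2 farthest in P4ha1. Bnip3 and Bnip3l gave r = 0.634 (p = 0.00029, adjusted p = 0.00217, permutation test) and rho = 0.518 (p = 0.00373, adjusted p = 0.0186, permutation test), with 0.597 in the deep and 0.66 in the shallow libraries. Without animals 4438 and 4164 that r was 0.38 (p = 0.0479, adjusted p = 0.142, permutation test), so the call over all tumours depended on this pair of shallow libraries. Without animal 4438 alone it was 0.449 (adjusted p = 0.0319, permutation test), and the deep libraries, which hold neither, gave 0.597 with p = 0.0244 (adjusted p = 0.0733, permutation test).

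Vegfa and Pgk1 gave r = 0.6 (p = 0.00052, adjusted p = 0.0026, permutation test) and rho = 0.542 (p = 0.00215, adjusted p = 0.0186, permutation test), with 0.525 in the deep and 0.642 in the shallow libraries, and 0.549 without animals 4438 and 4150 (adjusted p = 0.0173, permutation test). Car9 and Vegfa gave r = 0.516 (p = 0.0038, adjusted p = 0.0142, permutation test) and rho = 0.496 (p = 0.00609, adjusted p = 0.0222, permutation test), with 0.688 in the deep and 0.461 in the shallow libraries, and 0.41 without animals 4459 and 4511 (adjusted p = 0.142, permutation test). The lactate transporters Slc16a3 and Slc16a1 gave r = 0.483 (p = 0.00715, adjusted p = 0.0214, permutation test) and rho = 0.487 (p = 0.00741, adjusted p = 0.0222, permutation test), with 0.422 in the deep and 0.557 in the shallow libraries, and 0.356 without animals 4030 and 4438 (adjusted p = 0.142, permutation test). P4ha1 with P4ha2 and Vegfa with Pgk1 were the pairs that still passed without their 2 farthest tumours. In the fit on Vegfa, Pgk1 and Car9 did not pass (limma adjusted p = 0.122 and 0.366). There the adjustment ran over 13612 genes, and here over 15 pairs.

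The isozymes of hexokinase did not move together detectably, with r = -0.064 (p = 0.72, adjusted p = 0.831, permutation test) and rho = 0.014 for Hk1 and Hk2, nor did Ldha and Ldhb, with r = 0.025 (p = 0.898, adjusted p = 0.898, permutation test) and rho = 0.004. Pfkl and Pfkp gave r = 0.416 (p = 0.0222, adjusted p = 0.0554, permutation test) and rho = 0.407. Aldoa with Aldoc, Pfkfb3 with Pfkfb4 and Egln1 with Egln3 had r values of 0.323, 0.3 and 0.267 and did not pass either. Their rho values were 0.294, 0.266 and 0.416 (adjusted p = 0.212, 0.232 and 0.0567, permutation test). In the deep libraries r was 0.655, 0.463 and 0.638 (adjusted p = 0.0538, 0.176 and 0.0538, permutation test), and in the shallow ones 0.167, 0.167 and 0.286. Without animal 4438, a setting chosen after seeing the data, Pfkfb3 and Pfkfb4 reached r = 0.503 (adjusted p = 0.0225, permutation test). They passed in no other setting. Without animals 4036 and 4357, the 2 farthest in Pfkfb3, r was 0.217 (adjusted p = 0.402, permutation test), and with quantile normalisation 0.166. Animal 4438 had the fourth-highest Pfkfb3 and the lowest Pfkfb4.

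Hif1a, which encodes the alpha subunit that is regulated mainly as a protein, ran from 14.9 RPKM in animal 4150 over a median of 29.3 to 41.0 RPKM in animal 4438. Against Vegfa it gave r = -0.279 (p = 0.134, adjusted p = 0.202, permutation test) and rho = -0.265 (p = 0.155, adjusted p = 0.232, permutation test), with -0.547 in the deep and -0.174 in the shallow libraries. Without animal 4438 alone r was -0.542 (p = 0.00236, adjusted p = 0.0118, permutation test), and without animals 4150 and 4438 it was -0.389 (adjusted p = 0.142, permutation test). Whether Hif1a with Vegfa passed thus depended on which of these 2 tumours entered, while r was negative in each of these settings. The deep libraries, which hold neither tumour, gave r = -0.547 with p = 0.0437 (adjusted p = 0.109, permutation test). Hif1a with Pgk1 gave r = 0.301 (adjusted p = 0.179, permutation test), and Vegfa with its receptor gene Kdr r = -0.221 (adjusted p = 0.302, permutation test).

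**Figure D4:**
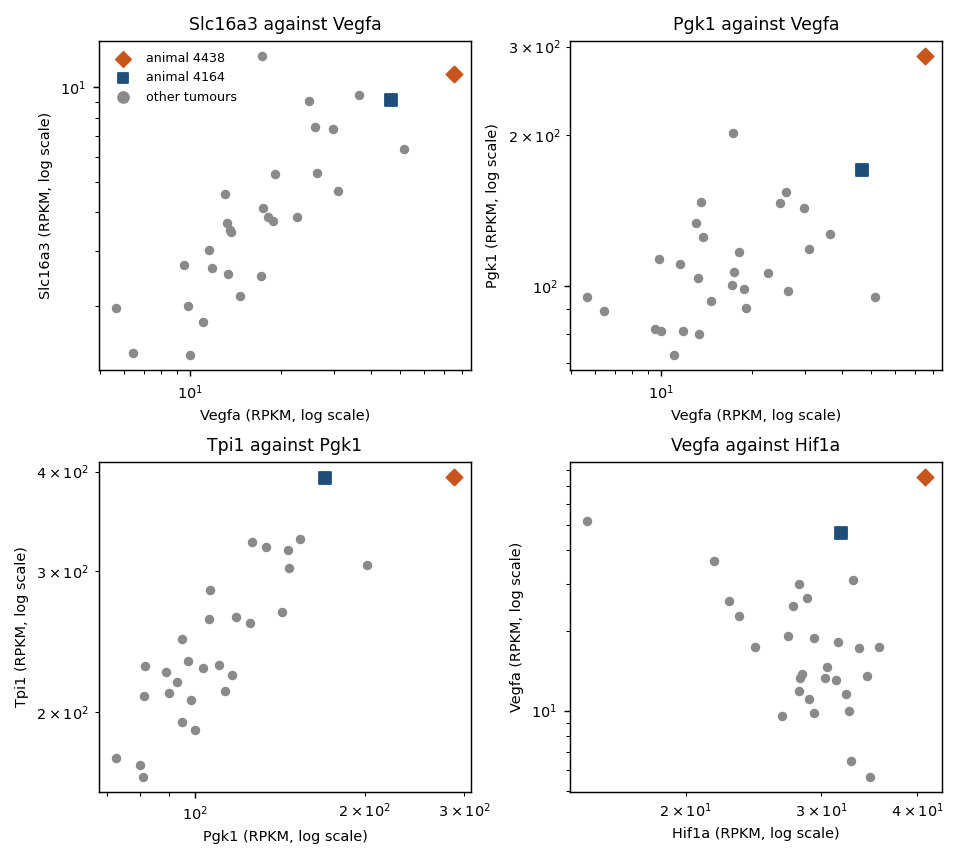
Levels of 4 pairs of genes in the 30 tumours, each in RPKM on log axes, with animal 4438 as an orange diamond, animal 4164 as a blue square and other tumours in grey. Slc16a3 rises with Vegfa and Tpi1 with Pgk1 along the whole range, while in the plot of Vegfa against Hif1a animal 4438 sits at the upper right, away from the falling trend of the others.

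Levels were then fitted on scores of gene lists that stand for the makeup of the tissue, each score being the mean of its members' standardised levels in SD units. With the proliferation score (24 genes, led by Ube2c, Rrm2 and Cdc20), 9 members rose and 1 fell, where 9.28% of all genes rose and 7.39% fell (limma, Benjamini-Hochberg). The members' shares were 27.3% and 3.03%. Markers of other cells also changed with this score: 17 of 20 stroma matrix genes and 11 of 14 endothelial genes fell. With the stroma score 16 of 24 proliferation genes fell and 14 of 14 endothelial genes rose. The stroma and endothelial scores thus moved together, and the proliferation score moved against them. The part of each score in the members' slopes was not tested. Of the 9, 6 were glycolytic enzymes: Pgam1, Tpi1, Pgk1, Gapdh, Eno1 and Gpi1. Pgam1 rose by 0.25 ± 0.05 per SD of the score (limma adjusted p = 0.000774) and Tpi1 by 0.20 ± 0.05 (limma adjusted p = 0.00478). Both passed in each of the 30 fits that left out 1 tumour, as did Pgk1, which rose by 0.23 ± 0.07 (limma adjusted p = 0.0139).

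The other members that rose were Ddit4, Higd1a and Pdk1, by 0.23 ± 0.07, 0.19 ± 0.06 and 0.15 ± 0.05 (Pdk1 by 0.10 without animal 4438, limma adjusted p = 0.0847), and Pfkfb4 fell by 0.14 ± 0.04 (limma adjusted p = 0.0211). Without animal 4036, which had the lowest proliferation score and the highest stroma score, 3 members passed in limma and all rose, against 6.18% of all genes rising, and without animal 4438, 6 rose, against 7.9%. Within the deep libraries no member passed in limma (5 at an unadjusted p under 0.05, against 18.5% of all genes). Within the shallow ones Pgam1 and Tpi1 rose, against 2.72% of all genes. Vegfa and Car9 had slopes of 0.07 ± 0.14 and 0.01 ± 0.15 and did not pass.

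With the stroma matrix score (20 genes, led by Col1a1, Col3a1 and Sparc), 6 members fell and 1 rose, where 11.7% of all genes fell and 10.5% rose (limma, Benjamini-Hochberg). As shares of the 33 members these were 18.2% falling and 3.03% rising. Ankrd37 fell by 0.35 ± 0.09 per SD of the score (limma adjusted p = 0.00562), but by 0.19 without animal 4438 (limma adjusted p = 0.0836). Gapdh fell by 0.26 ± 0.07 (limma adjusted p = 0.0108), but not past the threshold without animal 4036 (limma adjusted p = 0.0819). Pgam1, Eno1, Pdk1 and Ddit4 fell by 0.20, 0.17, 0.14 and 0.22, and Pfkfb4 rose by 0.13. Without animal 4438 the slope of Pdk1 was -0.04 (limma adjusted p = 0.526), that of Pfkfb4 0.08 (0.206) and that of Pgam1 -0.14 (0.0731). Eno1 passed in 9 and Pdk1 in 11 of the 30 fits that left out 1 tumour. The falling members were both glycolytic enzymes and other targets, and each lost its call without at least 1 tumour.

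None of the 6 falls was called in the deep libraries or without animals 4036 and 4438, the 2 farthest in the stroma score. The 1 call in each of those fits was a rise of Pfkfb3, by 0.40 (limma adjusted p = 0.0246, against 4.24% of all genes rising) and by 0.26 (limma adjusted p = 0.028, against 8.53%). Without animal 4438 alone Pfkfb3 rose by 0.39 (limma adjusted p = 0.000834), and Gapdh and Ddit4 still fell. Over all tumours its slope of 0.26 did not pass. In the shallow libraries Ankrd37 and Pgam1 fell, against 5.66% of all genes falling.

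With the endothelial score (14 genes, led by Eng, Egfl7 and Pecam1), 3 members fell and 1 rose, against 12.5% and 11% of all genes (limma, Benjamini-Hochberg). Egln3 fell by 0.33 ± 0.11 (limma adjusted p = 0.0231), Ankrd37 by 0.32 ± 0.09 and Pgam1 by 0.17 ± 0.06, and none of these passed without animal 4438, whose endothelial level was the lowest. Their slopes were then -0.27 for Egln3 (limma adjusted p = 0.0663), -0.17 for Ankrd37 (0.123) and -0.12 for Pgam1 (0.149). In that fit 3 of 33 members (9.09%) rose and none fell, against 10.3% and 11.4% of all genes. Which members were called thus changed with 1 tumour, and neither share was above that of all genes. Those that rose were Hk2 by 0.19 (limma adjusted p = 0.0278), Pfkfb3 by 0.35 (0.00318) and Pfkfb4 by 0.13 (0.0276). Over all tumours Pfkfb4 rose by 0.16 ± 0.04 (limma adjusted p = 0.00472), and this passed in each of the 30 fits that left out 1 tumour. The share of members that fell, 9.09%, was below the share of all genes. Within the deep libraries no member passed in limma (2 at an unadjusted p under 0.05, against 17.9% of all genes). Within the shallow ones Ankrd37 and Pgam1 fell and Pfkfb4 rose, against 5.5% and 6.88% of all genes.

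**Figure D5:**
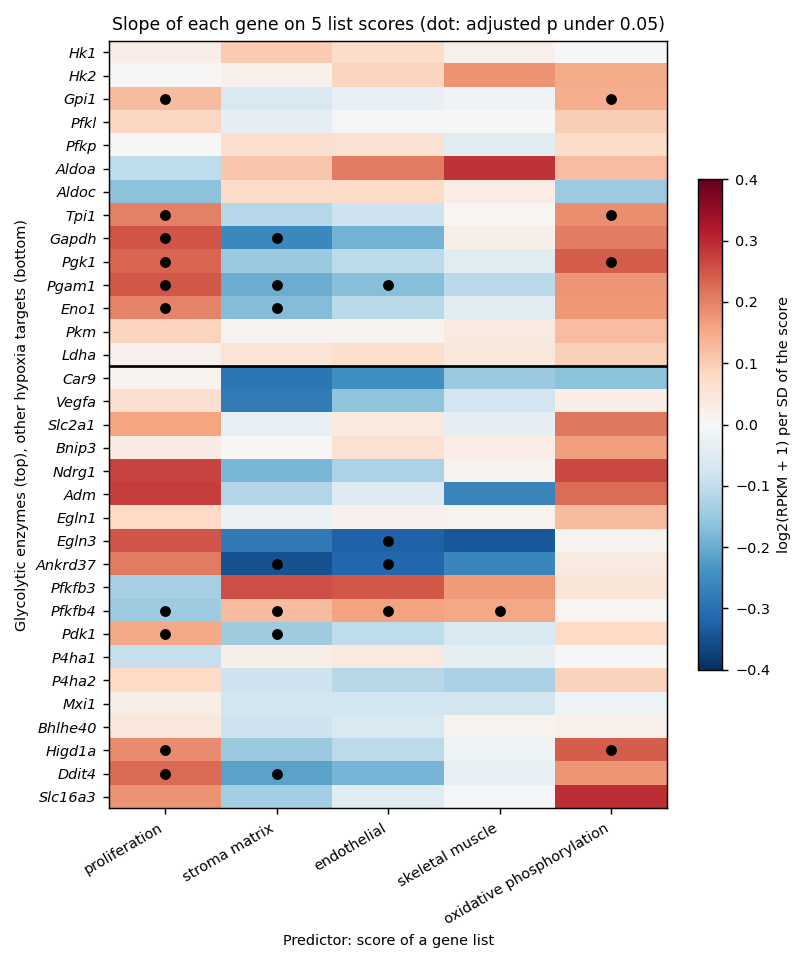
Slope of each member on 5 list scores, in log2(RPKM + 1) per SD of the score, red above and blue below 0, with black dots where the adjusted p was under 0.05. Dots lie on 6 of 14 glycolytic enzymes in the proliferation column, and Pfkfb4 is the one member with dots in 4 columns, opposite in sign to most others.

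The skeletal muscle score (14 genes, led by Acta1, Tnnt3 and Ckm) called 1 member, Pfkfb4, which rose by 0.16 ± 0.04 (limma adjusted p = 0.0439) where 2.09% of all genes rose and 0.199% fell. Without animal 3273 this did not pass (limma adjusted p = 0.301), and the slope was -0.02 in the deep libraries. The muscle isoforms outside the members did follow the score. The muscle mutase Pgam2 rose by 1.68 ± 0.06, the muscle enolase Eno3 by 1.26 ± 0.10 and the muscle phosphofructokinase Pfkm by 0.57 ± 0.06 (limma adjusted p of at most 3.1e-08), and all 3 passed in each of the 30 fits that left out 1 tumour. Aldoa, with a slope of 0.29 ± 0.09 in the same fit, did not pass (limma adjusted p = 0.0638).

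The oxidative phosphorylation score (16 genes, led by Atp5b, Cox4i1 and Atp5a1) stands for the respiratory chain. No member fell in limma, and 4 rose, Higd1a, Pgk1, Tpi1 and Gpi1, where 1.84% of all genes rose and 1.6% fell (limma, Benjamini-Hochberg). Higd1a rose by 0.24 ± 0.06 per SD (limma adjusted p = 0.0139), Pgk1 by 0.24 ± 0.07 (limma adjusted p = 0.0356), Tpi1 by 0.19 ± 0.05 and Gpi1 by 0.14 ± 0.04. At an unadjusted p under 0.05, 14 of 33 members passed, against 20.2% of all genes. Without animal 4020 or animal 4030 no member passed in limma (13 and 11 at an unadjusted p under 0.05, against 15.2% and 15.5% of all genes), and with quantile normalisation none passed (8, against 20% of all genes). Within the deep libraries 1 member rose, against 0.802% of all genes, and within the shallow ones none passed in limma (2 at an unadjusted p under 0.05, against 5.65% of all genes).

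Of the pathway genes outside the members that passed with the scores, a selection is given here. Of the 24 tested further glucose and lactate genes, 7 rose with the endothelial score and none fell (29.2% rising, against 11% of all genes, limma). They were Hk3, Pdk4, Eno3, Pgam2, Pfkm, Slc2a4 and Pdk2. Animal 3273 had the highest endothelial and the highest muscle score. Without it, Eno3, Pgam2, Pfkm, Slc2a4 and Pdk2 did not pass (limma adjusted p from 0.0986 to 0.294). With the endothelial score 10 of 14 skeletal muscle genes rose too. With the muscle score 7 of the 24 genes rose, against 2.09% of all genes. The part of muscle RNA in these rises was not tested. Epas1 (HIF-2 alpha) and Lox, a collagen cross-linking enzyme and known hypoxia target, moved with stroma. Epas1 rose by 0.38 ± 0.06 per SD of the stroma score (limma adjusted p = 1.9e-05) and by 0.40 ± 0.06 per SD of the endothelial score (limma adjusted p = 3.25e-06). Lox rose by 0.64 ± 0.07 (limma adjusted p = 8.37e-08) and by 0.61 ± 0.08 (limma adjusted p = 1.07e-06). All 4 relations passed in each of the 30 fits that left out 1 tumour. Ero1a moved the opposite way and fell by 0.29 ± 0.07 with the stroma score (limma adjusted p = 0.0044), but not past the threshold without animal 4438 (limma adjusted p = 0.0791). With the proliferation score, Ak4 rose by 0.43 ± 0.09 (limma adjusted p = 0.0014) and the lactate transporter Slc16a1 by 0.32 ± 0.08 (limma adjusted p = 0.00765).

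Neither technical predictor called a member. With the mean insert size, 0 of 33 passed in limma (3 at an unadjusted p under 0.05, where 12.9% of all genes were), against 0.0147% of all genes rising and 0.022% falling. Between deep and shallow libraries, 0 of 33 passed in limma (2 at an unadjusted p under 0.05, where 8.65% of all genes were), against 0.022% of all genes higher and 1.22% lower in the deep ones.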

How the data were processed

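Poly-A selected RNA of 30 mammary tumours was sequenced after gel size selection, per the labels' protocols. The authors deposited RPKM values for 27902 RefSeq transcripts. No source used here names the unit. It was inferred from the values, whose low steps scale with transcript length. Per the submitters' processing notes CASAVA 1.7.0 was used, with build, annotation and alignment settings not given in the sources used here. Transcripts were named by accession with RefSeq (GRCm38.p6) and GENCODE vM21, 1258 were left out as unnamed, and the transcript with the highest mean stood for a gene. Depth was recovered from low values of transcripts of 150 to 2500 bases. Of these values, 61.3 to 81.8% per library fell on whole reads (tolerance 0.12), where chance gives 24%, which was too few for a count test. The 2 depth classes were split at the largest gap and treated as a technical batch that the labels do not name.

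Genes with a mean of 1 RPKM or more were tested on the log2(RPKM + 1) scale, on which the change of a low gene is understated. Slopes came from two-sided limma 3.58.1 tests (trended empirical Bayes, R 4.3.3), called at a Benjamini-Hochberg adjusted p under 0.05 across every tested gene, and the method was tested on simulated data. Python 3.11.15 (pandas 2.3.3, numpy 2.4.6, scipy 1.17.1, matplotlib 3.10.9) served for the pairs, with 100000 permutations, and the plots. All members are named, and pathway genes are named where they passed with Vegfa or Pgk1. For the other predictors only a selection of the pathway genes that passed is named. For Vegfa and Pgk1 a selection is also given of the 10 genes outside the lists with the smallest p in each direction. Lists of adipocyte, T cell and erythroid markers were also summed, with medians of 179, 23.9 and 166 RPKM and 64.8, 25.0 and 101 RPKM in animal 4438. Alternatives changed the pseudocount, filter, scaling, depth class, transcripts summed and tumours left out. The members and lists were chosen with earlier results of these data known.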

Additional observations from a re-analysis of the deposited data

How the results depend on the processing

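Each count of members called was recomputed with a pseudocount of 0.1, a filter at a mean of 5 RPKM, no filter, quantile normalisation, depth class as a covariate, with the 2 most extreme tumours of the predictor left out, within each depth class and without each tumour in turn (limma, Benjamini-Hochberg). The cause of the changes below was not tested, except that classes and subsets hold fewer tumours. The share of all genes called also moved with the setting and is given above for only some settings. Where it is not given, fewer member calls cannot be told apart from fewer calls over all genes. Against the proliferation score the count of 10 became 0 in the deep and 2 in the shallow libraries, and 3 to 11 without 1 tumour (3 without animal 4036, 6 without animal 4438). Against the stroma score the count of 7 became 4 with no filter, 1 without the 2 farthest tumours and 1 in the deep libraries (both rises), 2 in the shallow libraries, and 3 to 9 without 1 tumour, with 3 without animal 4036 or 4438 and 4 without animal 3427, 3540, 4150 or 4492. Against the endothelial score the count of 4 became 1 with the filter at 5 RPKM, 2 without the 2 farthest tumours, 0 in the deep libraries, and 3 to 6 without 1 tumour, where the 3 without animal 4438 all rose. The single muscle call became 0 with a pseudocount of 0.1, the filter at 5 RPKM, depth class as a covariate, without the 2 farthest tumours or in the deep libraries, and 0 to 2 without 1 tumour. Its slope, for Pfkfb4, turned to -0.015 in the deep libraries. Against the oxidative phosphorylation score the count of 4 became 1 with no filter, 0 with quantile normalisation, 1 without the 2 farthest tumours, 1 in the deep and 0 in the shallow libraries, and 0 to 4 without 1 tumour (0 without animal 4020 or 4030, 1 without animal 3939, 4036 or 4315, 2 without animal 4038).

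With Vegfa the count of 9 became 5 without animals 4438 and 4150, 0 in the deep and 3 in the shallow libraries, and 3 to 10 without 1 tumour (3 without animal 4438). With Pgk1 the count of 15 became 4 without animals 4438 and 4030, 2 in the deep and 4 in the shallow libraries, and 13 to 19 without 1 tumour. Insert size and depth class called 0 to 0 members without any 1 tumour. The 5 pairs that passed became 2 without the 2 farthest tumours, 2 in the deep and 3 in the shallow libraries, and 7 without animal 4438, an alternative chosen after seeing the data. The count of 12 members with an SD of at least 0.5 was also 12 with transcripts summed. No paired analysis was possible because all tumours form 1 group. Depth limits the precision of low members, of which Pfkfb4 had the lowest mean (3.57 RPKM), and with 14 or 16 tumours in a class a slope that did not pass was not detectable at that number.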
